A study of Mus musculus with 2 samples.

Results

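The 8 troponin genes were all more abundant in C2C12 cells given si*Malat1* than in cells given siNC, and by nearly the same proportion. They are the genes of the deposited table whose symbol is *Tnnc1*, *Tnnc2*, *Tnni1*, *Tnni2*, *Tnni3*, *Tnnt1*, *Tnnt2* or *Tnnt3*, and each of them was found, once, among 22095 genes. C2C12 is a line of mouse myoblasts, the precursors of muscle fibers, which stop dividing and fuse into myotubes when serum is withdrawn. The si*Malat1* group is C2C12 cells transfected with a short interfering RNA (siRNA) against the long non-coding RNA *Malat1*, and the siNC group is the same line given a negative control oligo. Both groups were put in differentiation medium with horse serum, for a pair of days by the study's description, and polyadenylated RNA was sequenced from 1 library per group. The cells are a single immortal line, so both libraries share its genotype, and no replicate measures the spread between cultures. For the same reason no p-value or error is given for any value here.

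Troponin is the calcium switch of striated muscle. It sits at intervals along the actin filament together with tropomyosin and has a calcium-binding subunit (troponin C), an inhibitory subunit that holds back the interaction of actin with myosin (troponin I) and a subunit that ties the complex to tropomyosin (troponin T). When calcium is released from the sarcoplasmic reticulum it binds troponin C, the grip of troponin I on actin is loosened, and tropomyosin moves so that myosin can pull. Each subunit has separate genes for fast skeletal, slow skeletal and heart muscle, except that slow fibers and the heart share *Tnnc1*. Embryonic skeletal muscle and cultured myotubes are known to express slow genes and the cardiac *Tnnt2* beside the fast ones.

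The oligo pair that the study lists as si*Malat1* is printed here because it defines the comparison, with bases 2 to 8 of the antisense strand, its seed, in capitals.
siMalat1 sense: gugaaugagugauaaguaa
siMalat1 antisense: uUACUUAUcacucauucac
In the annotated mouse transcripts (GENCODE M21, GRCm38), the antisense strand matched *Malat1* on chromosome 19 with 0 mismatches. In the transcripts of the 8 troponin genes its best sites had 6 mismatches in *Tnnc1* and 7 or 8 in the others, and 0 of the troponin transcripts held the site that pairs with the seed. *Malat1* itself had a level of 34.2 FPKM (mapped fragments scaled to transcript length and sequencing depth, the authors' unit) in si*Malat1* and 41.8 FPKM in siNC, a log2 ratio of -0.29. The reference genes *Gapdh* (409 FPKM in si*Malat1* and 415 in siNC) and *Hprt* (44.5 FPKM in si*Malat1* and 43.4 in siNC) differed far less than any troponin gene.

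The calcium-binding subunit was the most abundant part of the complex at the RNA level. *Tnnc1*, the troponin C of slow fibers and the heart, stood at 3549 FPKM in si*Malat1* and 2099 FPKM in siNC. On the log2 scale, with 0.1 FPKM added to each value, this is a ratio of 0.76. Among all genes of the table *Tnnc1* ranked 6 by level in si*Malat1* and 14 in siNC, and its difference of 1450.1 FPKM ranked 2, behind that of the skeletal actin gene *Acta1*. *Tnnc2*, the troponin C of fast fibers, was well under it in both libraries, with 1039 FPKM in si*Malat1* and 649.9 FPKM in siNC (log2 ratio 0.68). The 2 genes lie on different chromosomes, *Tnnc1* on chromosome 14 of mm9 from 32021498 to 32024897 and *Tnnc2* on chromosome 2 from 164602662 to 164605234.

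Among the inhibitory subunits the fast gene had the largest ratio of the family. *Tnni2*, the fast troponin I, stood at 1370.2 FPKM in si*Malat1* and 765 FPKM in siNC, a log2 ratio of 0.84. Of the 11099 genes that averaged 1 FPKM or more over both libraries and were above 0 in each, 116 had a larger ratio. *Tnni1*, the slow troponin I, stood at 1129 FPKM in si*Malat1* and 721 FPKM in siNC (log2 ratio 0.65). Both skeletal genes were thus abundant in either library, whereas the heart gene was close to the lower end of what is read here. *Tnni3*, the cardiac troponin I, stood at 2.999 FPKM in si*Malat1* and 1.92 FPKM in siNC (log2 ratio 0.62), and with 1 FPKM added in place of 0.1 its log2 ratio was 0.46. *Tnni2* is also the gene behind the qRT-PCR assay that the study lists as Troponin, since its primer pair matched bases 134 to 154 and 523 to 543 of 1 annotated *Tnni2* transcript. The primers are shown to identify the gene that was assayed, with the reverse primer read on the opposite strand.
Troponin For: CCTGAAGAGTGTGATGCTCCA
Troponin Rev: CCCGTTCCTTCTCAGTGTCTT

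RNA of the tropomyosin-binding subunit came from all 3 of its genes. *Tnnt2*, the cardiac troponin T, was the most abundant of them, with 1346 FPKM in si*Malat1* and 882 FPKM in siNC. Its log2 ratio of 0.61 was the smallest of the family, and 236 of the 11099 genes had a larger one. *Tnnt3*, the fast troponin T, stood at 1069 FPKM in si*Malat1* and 649 FPKM in siNC (log2 ratio 0.72). *Tnnt1*, the slow troponin T, was the least abundant, with 332 FPKM in si*Malat1* and 193 FPKM in siNC (log2 ratio 0.78). The table lists *Tnnt3* at a locus that it shares with *Lsp1* and *Gm14492*, so its FPKM is less certain, and the other 7 troponin genes have a locus each. FPKM are summed over the splice forms of a gene, and troponin T genes are known for many of them, so a shift between splice forms is not visible in these values.

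**Figure D1:**
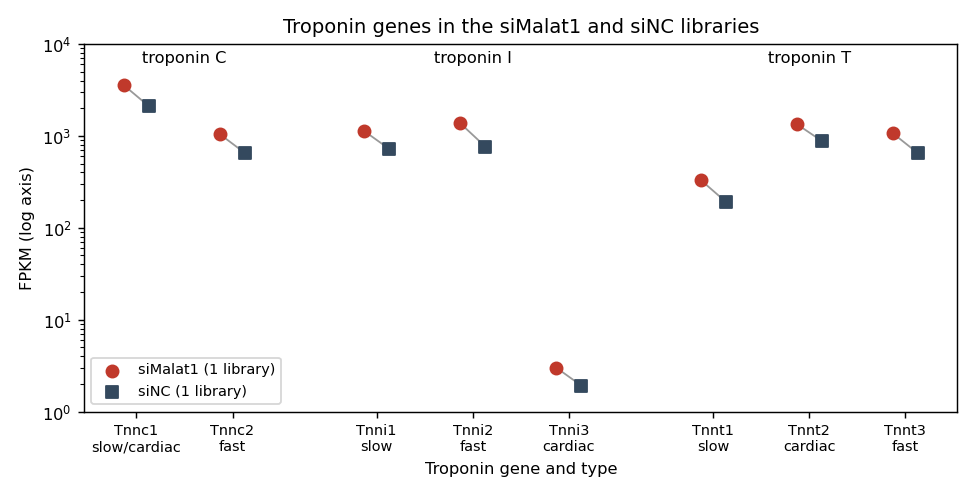
FPKM of each troponin gene (log axis) in si*Malat1* (circles, left) and siNC (squares, right), 1 library each, grouped by subunit and joined by a line. All 8 genes are higher in si*Malat1*, and *Tnni3* stands apart at 2.999 and 1.92 FPKM.

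All 8 troponin genes were at least 1.5-fold higher in si*Malat1* and 0 were at least 1.5-fold lower, where 2.29% of the 11099 genes were at least 1.5-fold higher and 1.75% at least 1.5-fold lower. The background was little different among abundant genes, of which 3.30% of 879 averaging 100 FPKM or more passed the same limit. These 879 include 7 of the troponin genes, all but *Tnni3*, and 22 other genes passed the limit with them. The median log2 ratio was 0.70 for the troponin genes, -0.04 for the 11099 genes and 0.05 for the 879 abundant genes. The ratios of the family spanned only 0.61 to 0.84 on the log2 scale, which is 1.53-fold for *Tnnt2* to 1.79-fold for *Tnni2*. Of the abundant genes, 851 had a smaller ratio than any troponin gene and 5 a larger ratio than all of them. The limit of 1.5-fold lies just under the smallest troponin ratio, so the count depends on it. With both libraries scaled to the same FPKM sum, 6 of 8 passed, since *Tnnt2* came to 0.56 and *Tnni3* to 0.57, and at a limit of 2-fold 0 passed.

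**Figure D2:**
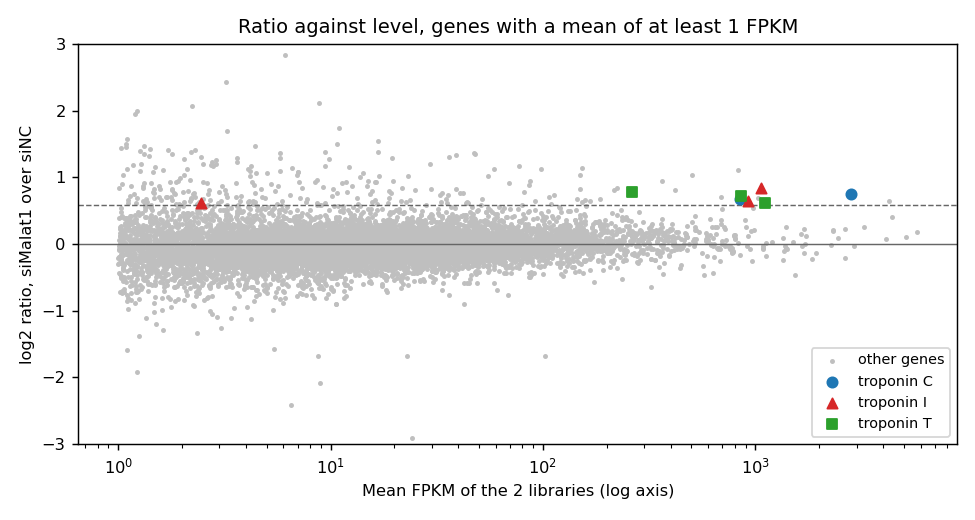
Log2 ratio of si*Malat1* over siNC (vertical axis) against the mean FPKM of the 2 libraries (log axis) for 11099 genes, with troponin C as circles, troponin I as triangles and troponin T as squares. The dashed line marks 1.5-fold, and all 8 troponin genes lie above it between 0.61 and 0.84.

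Summed over genes, the 3 subunits were higher in nearly equal measure. Troponin C genes summed to 4588 FPKM in si*Malat1* and 2749 FPKM in siNC, 1.67 times as much. Troponin I genes summed to 2502 FPKM in si*Malat1* and 1488 FPKM in siNC, 1.68 times as much. Troponin T genes summed to 2748 FPKM in si*Malat1* and 1725 FPKM in siNC, 1.59 times as much. The balance between subunits was therefore close in both libraries, with 1.67 times as much troponin C as troponin T RNA in si*Malat1* and 1.59 times in siNC, and 0.91 times as much troponin I as troponin T RNA in si*Malat1* and 0.86 times in siNC. In all, troponin RNA made up 1.96% of the FPKM sum in si*Malat1* and 1.23% in siNC.

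By muscle type, the fast genes summed to 1.68 times and the slow genes (with *Tnnc1*) to 1.66 times their siNC level in si*Malat1*. The cardiac genes *Tnni3* and *Tnnt2* summed to 1.53 times theirs. *Tnnc1*, which slow fibers and the heart share, was counted as slow only. In si*Malat1* it held 3549 of the 5010 FPKM of the slow sum. *Tnnt2* held 1346 of the 1349 FPKM of the cardiac sum. The slow and cardiac figures therefore depend on where *Tnnc1* is counted. The make-up of each subunit shifted by a few percentage points at most. The fast *Tnni2* was 54.8% of troponin I RNA in si*Malat1* and 51.4% in siNC, the widest shift. The fast *Tnnt3* was 38.9% of troponin T RNA in si*Malat1* and 37.7% in siNC, and the cardiac *Tnnt2* was 49.0% in si*Malat1* and 51.1% in siNC. The fast *Tnnc2* moved the other way, with 22.6% of troponin C RNA in si*Malat1* and 23.6% in siNC. Thus the fast share was higher in si*Malat1* for troponin I and T and lower for troponin C, and with 1 library per group no measure of culture-to-culture spread exists for these shifts. The order of the genes by level also differed a little. *Tnni2* stood above *Tnnt2* and *Tnnt3* above *Tnnc2* in si*Malat1*, and both pairs stood the other way round in siNC. These orders rest on close values, with *Tnnt3* at 649.5 and *Tnnc2* at 649.9 FPKM in siNC. In si*Malat1*, *Tnni2* was at 1370 and *Tnnt2* at 1346 FPKM. No change of order is read from them.

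**Figure D3:**
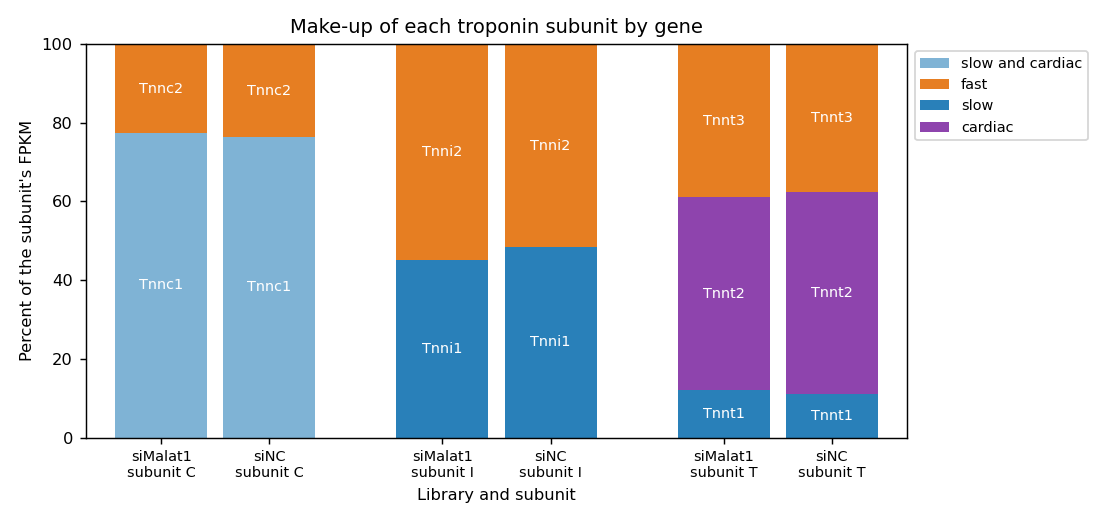
Percent of the FPKM of troponin C, I and T (stacked bars) held by each gene in si*Malat1* (left of each pair) and siNC (right), 1 library each, colored by fast, slow or cardiac type. *Tnni2* holds 54.8% of troponin I in si*Malat1* and 51.4% in siNC, and *Tnni3* is too small to see.

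Heart genes of the family stood beside low values of most defining markers of heart muscle. Against the 1346 FPKM of *Tnnt2* in si*Malat1* and 882 FPKM in siNC, the atrial light chain *Myl7* was listed at 0 in both libraries and the natriuretic peptide *Nppa* at 0 in si*Malat1* and 0.017 FPKM in siNC. An exact 0 in this table can be a failed estimate, so it does not show that a gene is silent, and this holds for each gene listed at 0 here. Of 10 heart markers, 7 were under 1 FPKM in both libraries, and the list summed to 16.7 FPKM in si*Malat1* and 15.7 FPKM in siNC, mostly from *Gata4* (8.39 FPKM in si*Malat1* and 10.7 in siNC) and *Myh6*, which shares its locus with another gene (5.87 FPKM in si*Malat1* and 2.55 in siNC). The 6 skeletal muscle markers, among them desmin (*Des*, 1805 FPKM in si*Malat1* and 1652 in siNC), summed to 3769 FPKM in si*Malat1* and 3040 FPKM in siNC. Leukocyte markers summed to 0.72 FPKM in si*Malat1* and 1.07 FPKM in siNC, endothelial markers to 0.20 FPKM in si*Malat1* and 0.31 FPKM in siNC, and adipocyte markers to 6.11 FPKM in si*Malat1* and 4.98 FPKM in siNC, with *Adipoq* and *Plin1* listed at 0 in both. Smooth muscle markers summed to 2604 FPKM in si*Malat1* and 2311 FPKM in siNC, nearly all of it *Acta2*, which is known to be made by myoblasts. In bulk RNA, a higher share of differentiated cells and more troponin RNA per cell cannot be told apart.

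The RNAs of proteins that troponin works with on the thin filament were higher in part. Of 8 such genes that averaged 1 FPKM or more, 4 were at least 1.5-fold higher and 0 at least 1.5-fold lower (2.29% and 1.75% of the 11099 genes), and their median log2 ratio was 0.60, against -0.04 for the 11099 genes. The largest ratios were those of leiomodin *Lmod2*, which nucleates actin (40.9 FPKM in si*Malat1* and 24.6 in siNC, 0.73), the cardiac actin *Actc1* (1264 FPKM in si*Malat1* and 787 in siNC, 0.68) and nebulin *Neb*, which runs along the thin filament (9.61 FPKM in si*Malat1* and 5.96 in siNC, 0.68). The pointed-end cap *Tmod1* (30.4 FPKM in si*Malat1* and 27.2 in siNC, 0.16) and the tropomyosin *Tpm3* (140 FPKM in si*Malat1* and 151 in siNC, -0.11) were at the other end. *Tpm2*, the most abundant tropomyosin of the list, lay just under the limit (1160 FPKM in si*Malat1* and 795 in siNC, 0.54). *Tpm1*, another tropomyosin gene to which troponin T would bind, was listed at 0 in both libraries. Relative to *Acta1* (5199 FPKM in si*Malat1* and 3326 in siNC, log2 ratio 0.64), the troponin ratios differed by between -0.03 for *Tnnt2* and 0.20 for *Tnni2* on the log2 scale. Thus there was 0.68 times as much *Tnnc1* as *Acta1* RNA per length in si*Malat1* and 0.63 times in siNC.

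Other genes that distinguish fast, slow and heart muscle had larger median ratios, and more scattered ones, than the troponin genes. The lists are not matched for level. Many of these genes were low, such as *Mybpc2* and *Myl2*, whereas 7 troponin genes averaged 100 FPKM or more. Among the listed genes that averaged 100 FPKM or more, log2 ratios ran from 0.28 for *Atp2a2* to 1.10 for *Myl4*. The others were *Actn3* (0.51), *Atp2a1* (0.63), *Actc1* (0.68), *Mylpf* (0.76), *Casq2* (0.94) and *Myl1* (1.04). These abundant genes lay on both sides of the troponin median of 0.70, so no larger ratio is read at like level. Of 9 fast genes that averaged 1 FPKM or more, 8 were at least 1.5-fold higher (2.29% of the 11099 genes were), with a median log2 ratio of 1.04 and a range from 0.51 for the Z disc gene *Actn3* (274 FPKM in si*Malat1* and 193 in siNC) to 2.11 for the calcium store gene *Casq1* (14.3 FPKM in si*Malat1* and 3.24 in siNC). Between them lay the adult fast myosin heavy chain *Myh1* (24.2 FPKM in si*Malat1* and 9.26 in siNC, 1.38) and the fast myosin-binding protein C gene *Mybpc2* (2.03 FPKM in si*Malat1* and 0.75 in siNC, 1.32). *Mylpf*, the fast regulatory light chain and the one fast gene of the list with a level like that of *Tnnc1*, stood at 3530.0 FPKM in si*Malat1* and 2085 FPKM in siNC, and its log2 ratio of 0.76 was the same as that of *Tnnc1* to 2 decimals. The calcium buffer *Pvalb* had 0.36 FPKM in si*Malat1* and was listed at 0 in siNC. Of 5 slow genes, 4 passed, with a median of 1.02, and *Atp2a2*, the calcium pump of slow fibers, did not (163 FPKM in si*Malat1* and 134 in siNC, 0.28). The largest slow ratio was that of the light chain *Myl2* (5.47 FPKM in si*Malat1* and 0.94 in siNC, 2.43), and the slow myosin heavy chain *Myh7*, listed at a locus with other genes, stood at 22.7 FPKM in si*Malat1* and 11.1 FPKM in siNC (1.02). The 3 cardiac genes that were expressed all passed, among them the light chain *Myl4* of atria and embryonic muscle (1134 FPKM in si*Malat1* and 528 in siNC, 1.10). Of 15 genes that release, store or sense calcium upstream of troponin, 5 passed, with a median of 0.45. The same 2.29% of all genes is the background for the slow, cardiac and calcium counts. They range from *Casq1* and the calcium channel *Cacna1s* (38.0 FPKM in si*Malat1* and 21.3 in siNC, 0.83) to the calmodulin gene *Calm3* (163 FPKM in si*Malat1* and 179 in siNC, -0.13), whose product is a calcium sensor of all cells related to troponin C. None of these lists had a gene at least 1.5-fold lower. The lists overlap, so their counts are not independent. *Actc1* is counted among the cardiac and the thin filament genes. *Casq1*, *Casq2* and *Atp2a1*, which passed among the calcium genes, are also counted as fast or slow genes. *Sln*, an inhibitor of the calcium pump, was listed at 0 in both libraries.

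**Figure D4:**
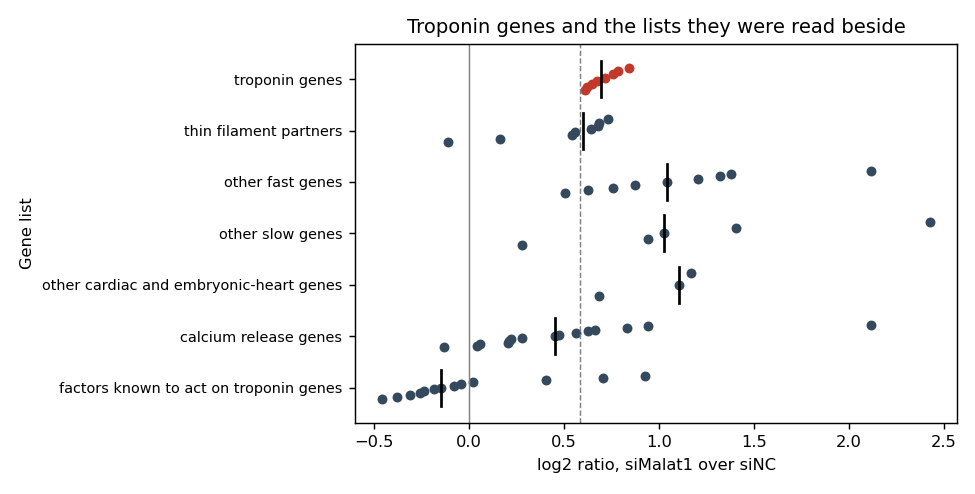
Log2 ratio of si*Malat1* over siNC for each gene (points) averaging 1 FPKM or more, by list, with the median as a bar and 1.5-fold as a dashed line. The troponin genes span 0.61 to 0.84, and the other fast genes 0.51 to 2.11.

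Among factors known to act on troponin genes, 4 of 13 had a ratio above 0 and 9 below. Over the 11099 genes, 42.6% had a ratio above 0. Of 13 that averaged 1 FPKM or more, 2 were at least 1.5-fold higher and 0 at least 1.5-fold lower, against 2.29% and 1.75% of the 11099 genes, and their median log2 ratio was -0.14. The 2 were *Mef2c*, a partner of the myogenic factors (11.1 FPKM in si*Malat1* and 5.81 in siNC, 0.93), and *Myog*, which encodes myogenin (857 FPKM in si*Malat1* and 525 in siNC, 0.71). *Myod1*, the master factor of the lineage, stood at 95.8 FPKM in si*Malat1* and 113 FPKM in siNC (-0.23). *Tead4*, a factor that binds MCAT elements, stood at 33.4 FPKM in si*Malat1* and 25.1 FPKM in siNC (0.41), and the early factor *Myf5* at 17.3 FPKM in si*Malat1* and 23.8 FPKM in siNC (-0.46). Among the abundant genes (100 FPKM or more on average), *Myog* had the ratio nearest to the troponin median of 0.70, 0.01 away on the log2 scale. It was followed by the small heat shock gene *Hspb2* (133 FPKM in si*Malat1* and 81.1 in siNC, 0.71), *Actc1*, the stress gene *Gadd45a* (227 FPKM in si*Malat1* and 143 in siNC, 0.67) and the transcription factor *Atf5* (177 FPKM in si*Malat1* and 111 in siNC, 0.67), which shares its locus with other genes. This likeness rests on 2 libraries, that is on 1 ratio per gene.

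Troponin I and troponin T genes lie near each other in pairs. On chromosome 7 of mm9, *Tnni2* (149628373 to 149630310) lies 16.5 kb from the locus listed for *Tnnt3* (149646775 to 149701914). That locus is shared with *Lsp1* and *Gm14492*, so the distance to *Tnnt3* itself is not known here. On the same chromosome, *Tnnt1* (4456265 to 4467577) and *Tnni3* (4469910 to 4474045) are 2.33 kb apart. On chromosome 1, *Tnni1* (137695998 to 137707566) and *Tnnt2* (137732963 to 137748838) are 25.4 kb apart. Within a pair the log2 ratios differed by 0.12 for *Tnni2* and *Tnnt3*, by 0.16 for *Tnnt1* and *Tnni3* and by 0.04 for *Tnni1* and *Tnnt2*. Neighbors in a pair could be very unequal in level, and there was 111 times as much *Tnnt1* as *Tnni3* RNA in si*Malat1* and 101 times in siNC. The difference of 0.16 between the ratios of these 2 genes was the widest of the 3 pairs, and with 1 FPKM added the ratios were 0.78 for *Tnnt1* and 0.46 for *Tnni3*.

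Most other genes beside the troponin loci had ratios close to 0. Within 100 kb of a troponin locus the table has 44 other genes, of which 27 average 1 FPKM or more and are above 0 in both libraries. Their median log2 ratio was -0.01, with 12 above 0 and 15 below, where 42.6% of the 11099 genes were above 0, and 1 of the 27 was at least 1.5-fold higher, a share near the 2.29% of all genes. That gene was *Syt8*, a synaptotagmin 2.07 kb from *Tnni2*, at 2.33 FPKM in si*Malat1* and 1.26 FPKM in siNC (0.83). *Lsp1*, a cytoskeletal gene in the locus of *Tnnt3*, stood at 213 FPKM in si*Malat1* and 189 FPKM in siNC (0.17), and *Nisch*, 1.49 kb from *Tnnc1*, at 112 FPKM in si*Malat1* and 130 FPKM in siNC (-0.22). The imprinted RNA *H19*, 59.5 kb from the *Tnnt3* locus, stood at 5018 FPKM in si*Malat1* and 3791 FPKM in siNC (0.40). *Mir675*, the microRNA gene at the locus of *H19*, is not among the 27. It was listed at 0 in si*Malat1* and at 321 FPKM in siNC. Because *Mir675* shares its locus with *H19*, reads of these genes cannot be assigned. Neither value is read as a level of the microRNA. The mitotic gene *Ube2c*, 4.26 kb from *Tnnc2*, had the lowest ratio of the 27, with 19.9 FPKM in si*Malat1* and 29.3 FPKM in siNC (-0.55).

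**Figure D5:**
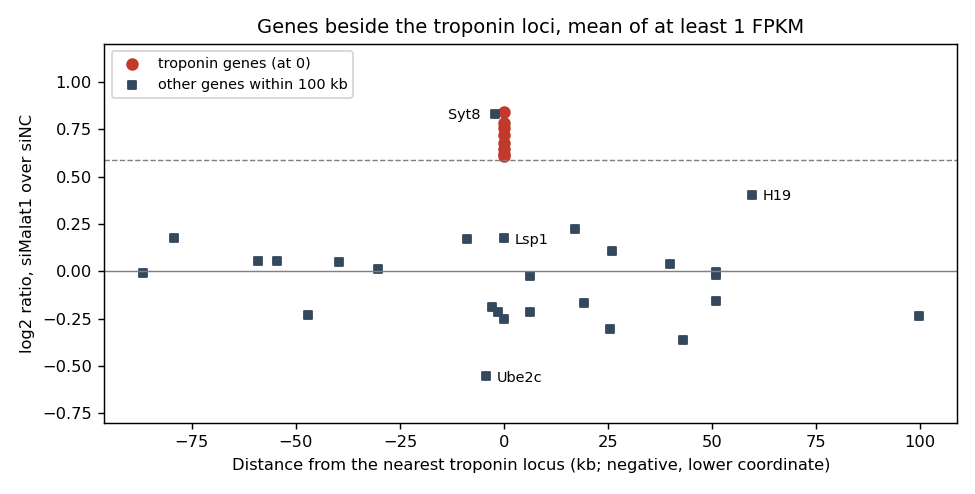
Log2 ratio of si*Malat1* over siNC (vertical axis) of 27 genes (squares) by their distance in kb from the nearest troponin locus, with the 8 troponin genes (circles) at 0 and 1.5-fold as a dashed line. *Syt8* is the 1 neighbor above the line, at 0.83.

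Paralogues of a family can share reads, so the annotated transcripts of the 8 genes were compared in words of 50 bases, the read length of the study. *Tnnc1*, *Tnni2* and *Tnnt3* shared 0 words with any other gene, and the only words shared between troponin genes were 2 that *Tnni1* and *Tnnt2* have in common (their shared words occurred in 442 other genes for *Tnni1* and 445 for *Tnnt2*). *Tnnc2* shared 47.9% of its words with transcripts of *Ube2c*, in either orientation. In this table *Ube2c* has a locus of its own, at 19.9 FPKM in si*Malat1* and 29.3 FPKM in siNC, far under *Tnnc2* in level and with the opposite sign. For the other genes the shared part was at most 1.69%, in *Tnni3*.

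RefSeq promoter windows (GRCm38.p6, 250 bases before to 50 after a start) were matched by symbol for 6 of the 8 genes. They are shown, 1 per gene, because the genes had like ratios and MyoD family factors bind E-boxes. The letters CANNTG (E-box) are in capitals. They read the same class on both strands, so 1 strand covers both. These coordinates are not those of mm9.
Tnnc1, chr14:31208062-31208361, plus strand: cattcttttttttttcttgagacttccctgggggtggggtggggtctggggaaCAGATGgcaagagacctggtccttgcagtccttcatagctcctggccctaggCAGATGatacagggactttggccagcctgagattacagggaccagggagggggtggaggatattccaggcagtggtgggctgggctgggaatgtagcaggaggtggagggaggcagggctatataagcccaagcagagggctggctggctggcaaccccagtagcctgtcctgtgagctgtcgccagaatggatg
Tnnc2, chr2:164779685-164779984, minus strand: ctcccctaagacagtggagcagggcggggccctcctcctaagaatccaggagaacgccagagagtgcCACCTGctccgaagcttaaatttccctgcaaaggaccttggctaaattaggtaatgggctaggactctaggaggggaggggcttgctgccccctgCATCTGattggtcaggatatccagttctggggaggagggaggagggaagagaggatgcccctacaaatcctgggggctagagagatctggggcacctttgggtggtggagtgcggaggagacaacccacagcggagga
Tnni1, chr1:135799171-135799470, plus strand: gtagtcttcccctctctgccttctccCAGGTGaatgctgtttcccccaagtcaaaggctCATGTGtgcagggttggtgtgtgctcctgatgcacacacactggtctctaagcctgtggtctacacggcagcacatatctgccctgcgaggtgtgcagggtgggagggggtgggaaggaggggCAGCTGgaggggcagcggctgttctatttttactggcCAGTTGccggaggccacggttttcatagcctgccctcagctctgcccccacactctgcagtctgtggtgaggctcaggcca
Tnni3, chr7:4522479-4522778, minus strand: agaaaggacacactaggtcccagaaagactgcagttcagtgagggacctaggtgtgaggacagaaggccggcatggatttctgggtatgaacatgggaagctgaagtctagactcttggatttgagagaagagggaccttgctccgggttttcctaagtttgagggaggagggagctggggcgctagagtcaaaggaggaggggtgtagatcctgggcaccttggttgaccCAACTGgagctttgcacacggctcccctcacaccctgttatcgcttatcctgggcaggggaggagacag
Tnnt1, chr7:4515926-4516225, minus strand: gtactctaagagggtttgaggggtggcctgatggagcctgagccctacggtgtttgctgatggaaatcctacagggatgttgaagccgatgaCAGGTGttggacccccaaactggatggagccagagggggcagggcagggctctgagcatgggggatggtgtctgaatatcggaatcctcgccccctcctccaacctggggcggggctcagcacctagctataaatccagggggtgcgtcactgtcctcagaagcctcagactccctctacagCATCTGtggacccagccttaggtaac
Tnnt2, chr1:135836084-135836383, plus strand: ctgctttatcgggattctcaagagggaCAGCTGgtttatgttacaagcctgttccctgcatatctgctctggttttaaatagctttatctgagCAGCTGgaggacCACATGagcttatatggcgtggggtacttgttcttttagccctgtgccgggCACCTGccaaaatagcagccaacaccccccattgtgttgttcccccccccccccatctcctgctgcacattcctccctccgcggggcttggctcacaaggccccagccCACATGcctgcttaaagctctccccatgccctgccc
All 6 genes held at least 1 E-box in their window, as did 72.3% of all 32851 windows, with 1.39 matches per window on average. *Tnnt2* held 5 and *Tnni1* 4 in the windows shown, *Tnnc1*, *Tnnc2* and *Tnnt1* held 2 each, and *Tnni3*, the gene of lowest level, held 1. A further window of *Tnni1* and one of *Tnnt2*, not shown, held only 2 E-boxes each, so the order of the genes depends on the window. The form CAGCTG, a subset of the E-boxes, was in the windows shown of *Tnnt2*, with 2, and of *Tnni1*, with 1, and in 16.3% of all windows. In the further windows *Tnni1* held 1 CAGCTG and *Tnnt2* held 0, and neither held CATTCC. The letters CATTCC (MCAT, read on both strands) were in the windows shown of *Tnnt2* and *Tnnc1* and in 14.7% of all windows. TATAAA (both strands) was in that of *Tnnt1* and in 13.6%. The MEF2 motif matched none of the 6 genes' windows and 3.19% of all windows. A match of letters is a description of the sequence and not a bound site.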

How the data were processed

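Polyadenylated RNA of C2C12 cells was sequenced as paired reads of 50 bases, 1 library for si*Malat1* and 1 for siNC. Per the labels and the methods of the study, the authors used TopHat2 2.0.9 for mapping to mm9, estimated the deposited FPKM with Cufflinks 2.1.1 and compared the libraries with Cuffdiff 2.1.1. The gene annotation and the strand setting are not given in the sources used here, so reads of overlapping genes cannot be assigned. The columns of the authors' own comparison, a log ratio and a yes or no call, were not used. FPKM hold no counts, so no counting interval is given. Of 1937 genes averaging 0.1 FPKM or less, 366 had ratios within 0.004 (natural log) of a ratio of small integers once a step of 1.09 between the libraries was allowed for, against a median of 31 at other steps. The weight of 1 fragment was thus about 1.09 times as large in si*Malat1*, but the genes on such steps are too few to recover whole fragments.

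Log2 ratios are of FPKM plus 0.1, si*Malat1* over siNC, which understates low genes, and the limit was 1.5-fold (0.58 on the log2 scale). Genes averaging 1 FPKM or more and above 0 in both libraries were tabulated, and genes listed at 0 in either got no ratio. Sums and shares are of FPKM as deposited. Starts were raised by 1, since 6044 of 16386 loci of 1 gene then have the RefSeq length, against 414 as given. Named genes are all members, the 3 largest and 2 smallest ratios and the genes listed at 0 of each list, neighbors within 100 kb, *Malat1*, *Gapdh*, *Hprt* and the 5 abundant genes nearest to the troponin median. A few are left unnamed, and any other name was picked with its values in view. The members and lists were chosen with earlier results of these data known. Python 3.11.15, numpy 2.4.6, pandas 2.3.3 and matplotlib 3.10.9 were used, and the ratio script was tested on simulated data.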

Additional observations from a re-analysis of the deposited data

How the results depend on the processing

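All 8 troponin genes were higher in si*Malat1* with 0.01 or 1 FPKM added and under each of 3 other scalings, with a median log2 ratio between 0.64 (same FPKM sum) and 0.73 (median ratio of 1). Of the values tabulated under alternatives, 70 stayed within 0.1 on the log2 scale, 1 percentage point or 1.5 times the count, limits chosen in the absence of replicates, and 6 moved further. The 3 scalings shifted log2 ratios by only about -0.05, 0.04 and 0.01, each under the limit of 0.1. The troponin genes averaging 100 FPKM or more are also too abundant for 0.01 or 1 FPKM added to move them. Most of the 70 therefore could not have moved, and their number does not measure robustness. With 1 FPKM added, the log2 ratio of *Tnni3* was 0.46 and 7 of 8 troponin genes passed. At a limit of 2-fold, 0 troponin genes and 0 thin filament genes passed, against 0.72% of the 11099 genes, and at a lower log2 limit of 0.32, 8 of 8 troponin genes and 6.50% of the 11099 passed. With 1 FPKM added, 178 of the 11099 genes were at least 1.5-fold higher and 77 lower, against 254 and 194 with 0.1 FPKM added. With libraries scaled to the same FPKM sum, 219 were higher and 249 lower, so that lower calls outnumbered higher ones, and at a median ratio of 1 the counts were 283 and 150. Without the filter on low values, 3.60% of genes were at least 1.5-fold higher. Leaving out *Tnnt3*, whose locus is shared, 7 of 7 passed. No replicate could be left out, and no paired analysis was possible because each group has 1 library. FPKM without counts and 1 library per group set the limit on every value here.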
